A study of Mus musculus with 7 samples.

Results

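The SOCS family of feedback inhibitors comprises Socs1 to Socs7 and Cish, and its 8 genes were taken by name from the 24084 genes listed in at least 1 of 7 RNA libraries of tumor macrophages. All 8 passed the filter on low counts, which left 16226 genes for testing. The macrophages were F4/80+ cells sorted by flow cytometry from tumors of Lewis lung carcinoma (LLC), a mouse lung cancer line that was injected under the skin. In 3 libraries, called Dicer1-deleted here, the mice carried homozygous LysM-Cre and homozygous floxed Dicer1 alleles (LysM-Cre;Dicer-/-). The 4 control libraries came from mice with homozygous LysM-Cre and intact Dicer1 (LysM-Cre;Dicer+/+), so both groups carried the Cre. LysM-Cre expresses the recombinase from the lysozyme M locus, which is active in macrophages, monocytes and neutrophils, and other cells of the host and the injected tumor cells keep their Dicer1. Ages are not stated in the labels, nor is it stated that each library came from a separate mouse, and the p-values therefore reflect only how far these libraries spread, which may be technical.

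SOCS proteins close a negative feedback loop on cytokine signaling. A cytokine brings Janus kinases (JAKs) together on its receptor, the kinases phosphorylate STAT transcription factors, and the STATs switch on genes that include Cish, Socs1, Socs2 and Socs3. Each SOCS protein has an SH2 domain that binds phosphotyrosine and a SOCS box that recruits elongins and cullin 5 into a ubiquitin ligase, and Socs1 and Socs3 also block the kinase directly. In macrophages Socs1 is known as a brake on interferon and Toll-like receptor signaling and Socs3 as a brake on interleukin 6 signaling. Dicer1 encodes the enzyme that cuts microRNA precursors to their mature form, and Socs1 is a known target of miR-155-5p. The comparison of both groups shows which SOCS transcripts differed when Dicer1 was deleted in myeloid cells.

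Matches to microRNA seeds and to STAT and interferon motifs are shown first, since the members differ in them and the deleted gene acts on microRNAs. The mature microRNAs, from RefSeq on GRCm38.p6, are written 5' to 3' with the seed, bases 2 to 8, in capitals. MicroRNA levels were not analysed here.
miR-155-5p: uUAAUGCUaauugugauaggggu
let-7a-5p: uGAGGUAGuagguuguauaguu
miR-19a-3p: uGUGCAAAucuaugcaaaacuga
The 3 seeds differ, and so do the 7-base sites that pair with them. A site is the reverse complement of a seed, searched in the longest 3' untranslated region (UTR) that GENCODE mouse release 21 (GRCm38) gives for each gene, without bases that code in another of its transcripts. Sites are shown 5' to 3' in capitals, with the bases beside them in lower case.
Socs1, miR-155-5p, chr16:10784207-10784213, minus strand: gctgccgctgtgccgcAGCATTAa
Socs1, let-7a-5p, chr16:10783965-10783971, minus strand: gacctgaattccactcCTACCTCt
Socs1, miR-19a-3p, chr16:10783933-10783939, minus strand: acatattcccagtatcTTTGCACa
Socs3, miR-19a-3p, chr11:117966160-117966166, minus strand: ccagttcaactcagacTTTGCACa
Socs4, let-7a-5p, chr14:47293222-47293228, plus strand: acagtagacaggccgaCTACCTCa
Socs7, let-7a-5p, chr11:97397473-97397479, plus strand: tcccttcccacttcatCTACCTCc
The miR-155-5p match in Socs1 began at base 20 of a 3' UTR of 1993 bases. Among the 12131 genes tested that have a 3' UTR, 9.14% held a miR-155-5p match, 10.2% a let-7a-5p match and 12.7% a miR-19a-3p match. Among the 8 members, miR-155-5p had a match in Socs1 and Socs6, let-7a-5p in Socs1, Socs4 and Socs7, and miR-19a-3p in Socs1, Socs3 and Socs5. Of the 13 microRNAs searched, Socs1 and Socs6 each had matches to 6, Socs7 to 5, Socs4 to 4, Socs3 to 3, and Socs2, Socs5 and Cish each to 2. The share of tested genes with a match ran from 6.71% (miR-142a-3p) to 18.3% (miR-24-3p) over the 13. How many of the 13 other genes match was not counted, so these numbers have no background. The 13 were picked by name and include miR-155-5p, of which Socs1 is a known target. The 3' UTR of Socs6 is 4019 bases long and that of Socs7 5184, so the 6 matches of Socs1 lie in a shorter stretch than theirs. Those of Socs2 and Socs3 are shorter still, at 1163 and 1474 bases, with 3 matching sites each. A match is a run of letters and not a measured site of regulation.

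Promoters in RefSeq (GRCm38.p6; 250 bases before to 50 after the start of the transcript) were at hand for 4 members: Cish, Socs1, Socs3 and Socs4. They were searched on both strands for TTCNNNGAA, the core of STAT binding elements, the same half-sites TTC and GAA with 4 bases between them, the spacing that STAT6 prefers, and a pair of GAAA with 2 bases between them, the core of the interferon-stimulated response element (ISRE). The stretches with matches are shown with the motifs in capitals.
Cish, chr9:107296654-107296683, plus strand: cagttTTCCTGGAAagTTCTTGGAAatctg
Socs3, chr11:117969501-117969530, minus strand: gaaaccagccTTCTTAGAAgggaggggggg
Socs1, chr16:10785597-10785626, minus strand: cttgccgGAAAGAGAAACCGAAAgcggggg
Cish held 2 copies of TTCNNNGAA, which begin at bases 1 and 12 of the transcript. Socs3 held 1 copy, which begins 154 bases before the start site. Socs1 held 2 overlapping copies of the ISRE core, which begin 83 and 77 bases before its start site, and the Socs4 window held none of the 3 motifs. Over 32851 promoters of the same length, 8.3% held TTCNNNGAA, 6.95% the STAT6 spacing and 3.44% the ISRE core.

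The libraries held 43 to 51.2 M uniquely placed reads, with both mates of a pair counted. Dicer1 itself stood at 7.84, 6.86 and 7.85 CPM (counts per M reads, scaled by the TMM method) in Dicer1-deleted libraries 1, 2 and 3 and at 15.7, 15.7, 18.5 and 17.1 CPM in control libraries 1 to 4. The groups did not overlap, and the log2 fold change (Dicer1-deleted minus control) was -1.16 ± 0.23 (SE), with an adjusted p of 0.150 in edgeR's quasi-likelihood test and of 4.96e-05 in DESeq2. The count covers the whole gene, and the part removed by the recombinase is not given in the labels. Summed macrophage markers reached 13700 to 21100 CPM in the Dicer1-deleted and 13650 to 21620 CPM in the control libraries. Markers of other cell types were present too, and the sum of a list can rest on 1 gene. The 21 T and NK cell markers summed to 38.9 to 81.2 CPM in the Dicer1-deleted and 17.1 to 35.9 CPM in the control libraries, and without Klrk1, the most abundant of them, to 15.0 to 30.6 and 14.6 to 16.9 CPM. The 9 B cell markers summed to 144 to 191 and 41.4 to 86.0 CPM, and without Ighm to 41.6 to 55.7 and 12.7 to 34.2 CPM. The markers of tumor, epithelial or stromal cells summed to 50.0 to 93.3 and 24.3 to 35.2 CPM, and without Pecam1, an adhesion molecule of endothelial cells and leukocytes, to 13.7 to 23.7 and 13.2 to 27.8 CPM, which overlap. The neutrophil markers summed to 253.8 to 314.8 and 177.2 to 626.4 CPM, which overlap. Without Mmp9, the most abundant of them, they summed to 156.8 to 233.4 and 63.6 to 139.3 CPM, which do not. Of the 7 neutrophil markers tested, 6 had positive fold changes and 1 a negative one. Since the RNA is from sorted cells in bulk, fewer cells of a type and less RNA per cell cannot be told apart. Dicer1-deleted library 2 stood apart from the others on the first principal component, at 134.1 against -66.2 to 22.2, and members that rest on it are given without it as well.

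Per length of transcript, Socs3 was the most abundant member in each of the 7 libraries. On the authors' deposited RPKM scale (reads scaled to the length of the transcript and the depth of the library) its mean over all 7 libraries was 25.8, followed by Socs6 at 4.09, Socs5 at 2.50, Socs4 at 2.25, Socs7 at 1.76, Cish at 0.933, Socs1 at 0.464 and Socs2 at 0.287. Socs3 lay above Socs6 and Socs6 above Socs5 in 7 of 7 libraries. Socs5 lay above Socs4 in 4 of 7, Cish above Socs1 in 5 of 7 and Socs1 above Socs2 in 3 of 7, so the order of these neighbours did not hold beyond the spread between libraries. The transcript lengths implied by the RPKM values differ from the joined exons of GENCODE for Socs1 (1253 against 2908 bases), Socs5 (4515 against 6416) and Socs6 (8441 against 11349). With the GENCODE lengths, Socs4 and Socs7 come before Socs5 and Socs2 before Socs1.

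**Figure D1:**
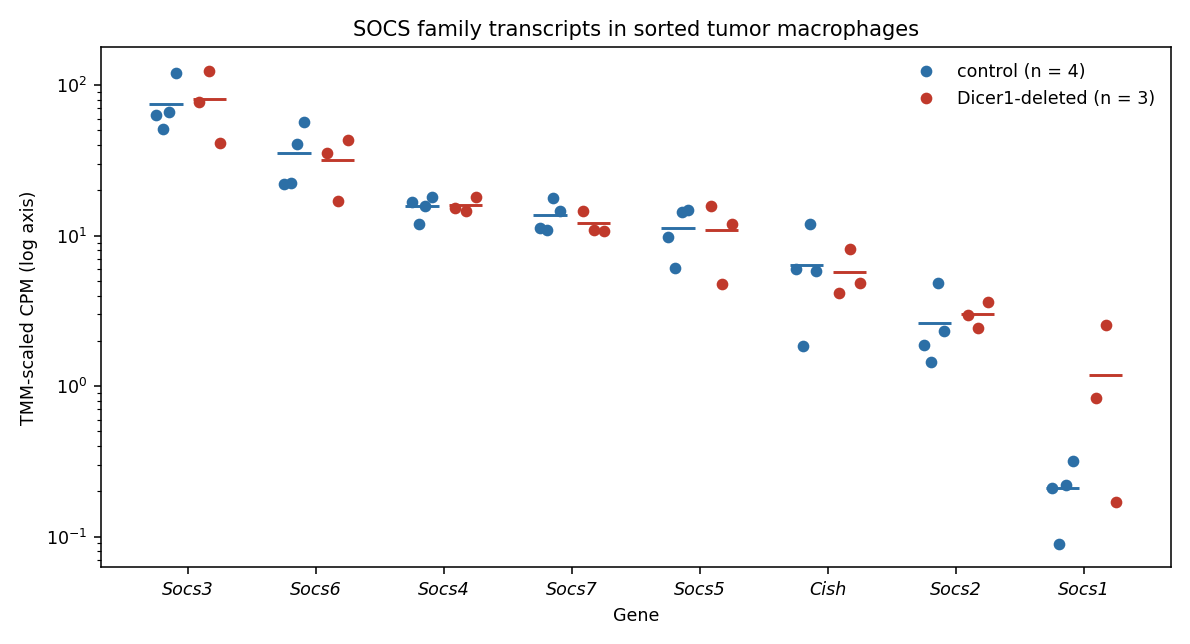
TMM-scaled CPM (log axis) of the 8 SOCS genes, with 1 dot per library, 4 control libraries in blue and 3 Dicer1-deleted libraries in red, and bars at the group means. Within each gene the dots of both groups overlap, and the widest spread is that of Socs1 in the Dicer1-deleted libraries, from 0.171 to 2.54 CPM.

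No SOCS gene passed the test between groups. In edgeR 0 of 8 members had an adjusted p under 0.05, against 4 of all 16226 genes (0.0247%), and in DESeq2 also 0 of 8, against 405 genes (2.5%). In limma-voom 0 of 8 passed, against 2 of 16226 genes. At an unadjusted p under 0.05 in edgeR, 1 of 8 members remained, Socs1, against 8.01% of all genes. The groups overlapped in all 8 members, while they did not overlap in 9.31% of all genes tested. Fold changes were positive in 4 members and negative in 4, with a median of -0.01 on the log2 scale, beside 0.03 for all genes, of which 52.6% were positive.

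**Figure D2:**
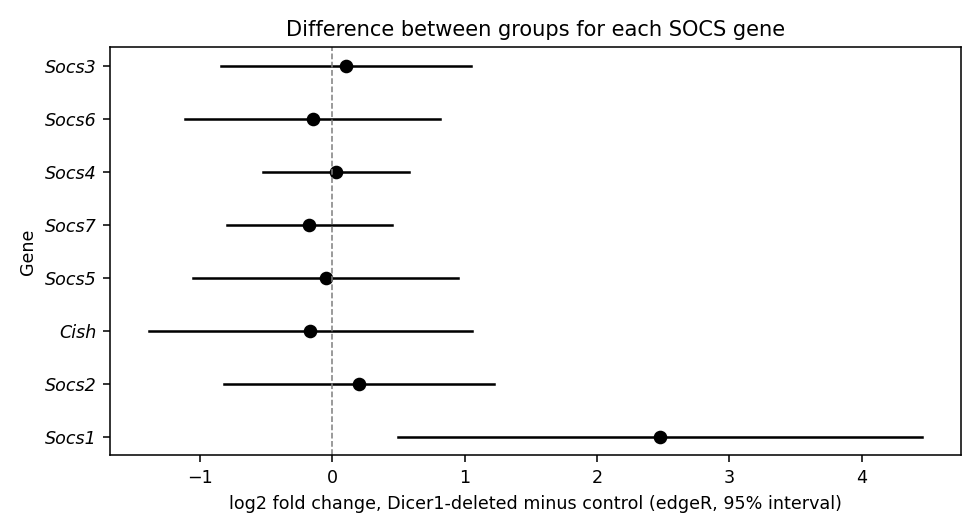
Log2 fold change of each SOCS gene, Dicer1-deleted minus control, from edgeR (dots) with 95% confidence intervals (lines). The intervals of 7 genes include 0, and that of Socs1, 0.50 to 4.46, does not, although its adjusted p was 0.448.

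Socs1, the member that blocks JAK kinases downstream of the interferon gamma receptor, was split among the Dicer1-deleted libraries. It stood at 0.830, 2.54 and 0.171 CPM in Dicer1-deleted libraries 1, 2 and 3. In control libraries 1 to 4 it stood at 0.2095, 0.0897, 0.219 and 0.319 CPM. Dicer1-deleted libraries 1 and 2 thus lay above all 4 control libraries, and library 3 lay within their range. These levels rest on 40, 100 and 8 reads in the Dicer1-deleted and 10, 4, 12 and 14 reads in the control libraries. The 95% exact Poisson interval, computed on read pairs and covering counting error only, was 0.507 to 1.28 CPM in Dicer1-deleted library 1, 1.89 to 3.35 CPM in library 2 and 0.0465 to 0.437 CPM in library 3. The highest upper limit among the control libraries was 0.657 CPM. The lower limit of library 1 lies below it and that of library 2 above it.

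The group means of Socs1 were 1.18 ± 1.22 CPM (SD, n = 3) in the Dicer1-deleted and 0.209 ± 0.0938 CPM (SD, n = 4) in the control libraries. The log2 fold change was 2.48 ± 0.88 (SE; edgeR, adjusted p = 0.448) and 2.54 in DESeq2 (adjusted p = 0.136). Without Dicer1-deleted library 2 the edgeR value was 1.23. Without Dicer1-deleted library 3 it was 2.99 in edgeR (adjusted p = 0.265) and 3.05 in DESeq2, where Socs1 passed (adjusted p = 0.021). Over all alternatives the adjusted p ranged from 0.021 to 0.812, and the fold change stayed positive in all 23 that gave a value, from 1.17 to 3.05. The library titles carry a code L4 or L5 whose meaning is not stated. Among libraries coded L4, Socs1 averaged 1.36 CPM in 2 Dicer1-deleted libraries against 0.0897 CPM in 1 control library. Among those coded L5, it was 0.830 CPM in 1 Dicer1-deleted library against 0.249 CPM in 3 control libraries.

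The summed T and NK cell markers were also higher in the Dicer1-deleted libraries, at 81.2, 67.5 and 38.9 CPM in libraries 1, 2 and 3 against 26.4, 17.1, 35.9 and 19.5 CPM in control libraries 1 to 4. The largest single contribution in the Dicer1-deleted libraries was that of Klrk1, which encodes the receptor NKG2D, at 50.6, 52.5 and 20.7 CPM against 11.2, 1.57, 18.95 and 4.83 CPM. Without Klrk1 the sum was 30.6, 15.0 and 18.3 CPM against 15.2, 15.5, 16.9 and 14.6 CPM. Dicer1-deleted library 2 then lay within the control range, but single markers in it went both ways. Cd3g stood there at 1.63 CPM, above the control range of 0.0897 to 0.729 CPM. Cd2 stood at 1.32 CPM and Cd4 at 0 CPM, below the control ranges of 3.90 to 7.65 and 1.55 to 4.53 CPM. Of the 18 markers tested, 15 had positive and 3 negative fold changes, and in DESeq2 Nkg7 was called higher (adjusted p = 0.0410) and Cd2 lower (adjusted p = 7.43e-04). Cd3e, a chain of the T cell receptor complex, ranged from 0.168 to 0.660 CPM over all 7 libraries and was highest in Dicer1-deleted library 2. No marker of the list was at 0 in every library. The part of these cells in the level of Socs1 was not tested.

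**Figure D3:**
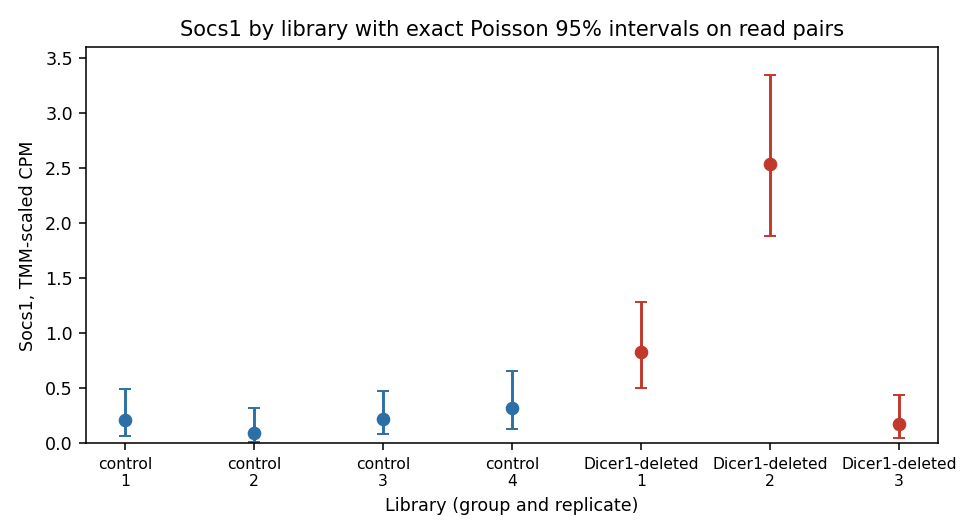
Socs1 in each of the 7 libraries as TMM-scaled CPM, control libraries in blue and Dicer1-deleted libraries in red, with 95% exact Poisson intervals from read pairs, which cover counting error only. Dicer1-deleted library 2 stands at 2.54 CPM and library 1 at 0.830, while library 3 lies among the 4 control libraries.

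Socs3 binds the receptor chain gp130 and holds down signaling by interleukin 6. It stood at 77.0, 124 and 41.4 CPM in Dicer1-deleted libraries 1, 2 and 3 and at 63.1, 50.8, 66.3 and 121 CPM in control libraries 1 to 4. The highest and the lowest of the 7 levels were both in Dicer1-deleted libraries, and control library 4 nearly reached the highest. Between groups the log2 fold change was 0.10 ± 0.42 (SE), with a 95% interval of -0.84 to 1.05 (edgeR, adjusted p = 0.996). The difference turned to -0.36 without Dicer1-deleted library 2 and to -0.02 without control library 2. Il6, which encodes that cytokine, stood at 4.40, 12.0 and 3.16 CPM in the Dicer1-deleted and 3.52, 3.81, 12.0 and 7.97 CPM in the control libraries. The receptor chain Il6st (gp130) differed by 0.30 ± 0.37 (SE) on the log2 scale.

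Cish, the STAT5-induced member that binds cytokine receptors, had the largest coefficient of variation of the 8 members within the control group, 65.1%. It stood at 5.99, 1.84, 12.0 and 5.83 CPM in control libraries 1 to 4. In Dicer1-deleted libraries 1, 2 and 3 it stood at 4.15, 8.18 and 4.82 CPM, all within the control range. The log2 fold change was -0.17 ± 0.54 (SE), with a 95% interval of -1.39 to 1.06 (edgeR, adjusted p = 0.996). It turned to 0.02 without Dicer1-deleted library 1 and to 0.33 without control library 3. The gene lies at chr9:107296026-107302784 (GRCm38) and overlaps the pseudogene Gm17040 and the antisense gene Gm17041, both on the opposite strand, and the libraries keep no strand. Reads placed at more than 1 position made up 21.2 to 33.2% of the deposited expected count of Cish in a library, against at most 1.98% for any other member, and its level is uncertain for both reasons.

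Socs2, which dampens growth hormone receptor signaling, was low in both groups. Its levels were 2.99, 2.44 and 3.63 CPM in the Dicer1-deleted and 1.89, 1.44, 4.85 and 2.32 CPM in the control libraries. All 3 Dicer1-deleted levels lay between those of control libraries 4 and 3. Between groups the log2 fold change was 0.20 ± 0.45 (SE), with a 95% interval of -0.82 to 1.22 (edgeR, adjusted p = 0.996). Leaving out each library moved it from 0.02 to 0.68.

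Socs4 and Socs5 are close relatives that act on the epidermal growth factor receptor, and they differed in spread. Socs4 was the steadiest member, at 15.2, 14.6 and 18.1 CPM in the Dicer1-deleted and 16.8, 12.0, 15.7 and 18.2 CPM in the control libraries, within a 1.52-fold range over all 7. Its log2 fold change was 0.03 ± 0.25 (SE), with a 95% interval of -0.52 to 0.58, the narrowest of the 8 members. Socs5 spanned a 3.29-fold range, at 15.7, 4.78 and 12.0 CPM in the Dicer1-deleted and 9.72, 6.06, 14.3 and 14.8 CPM in the control libraries. Its log2 fold change was -0.05 ± 0.45 (SE), with a 95% interval of -1.05 to 0.95. The adjusted p in edgeR was 0.999 for both genes. Neither direction was stable: Socs4 turned to -0.07 without Dicer1-deleted library 3 and to -0.06 without control library 2, and Socs5 to 0.30 without Dicer1-deleted library 2, to 0.09 without control library 3 and to 0.11 without control library 4.

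Socs6 and Socs7 are the members linked to insulin and growth factor receptor signaling. Socs6 stood at 35.6, 17.1 and 43.1 CPM in the Dicer1-deleted and 22.1, 22.3, 40.5 and 56.8 CPM in the control libraries. Socs7 stood at 14.6, 10.9 and 10.8 CPM in the Dicer1-deleted and 11.3, 10.9, 17.7 and 14.7 CPM in the control libraries. Socs6 thus spanned a 3.33-fold and Socs7 a 1.65-fold range with both groups mixed. The log2 fold change was -0.15 ± 0.43 (SE), with a 95% interval of -1.12 to 0.82, for Socs6. For Socs7 it was -0.17 ± 0.28 (SE), with a 95% interval of -0.79 to 0.45. The adjusted p in edgeR was 0.996 for both, and the interval of Socs7 leaves out a rise above 1.36-fold. Socs6 turned to 0.15 without Dicer1-deleted library 2 and to 0.17 without control library 4.

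Socs5 and Socs6 differed between libraries together with a property of the libraries that both genotypes showed. In each library the median log2 CPM of the longest 25% of genes (from 4834 bases) was set against that of the shortest 25% (up to 1338 bases), each gene taken relative to its mean over the 7 libraries. This difference was -0.88 in Dicer1-deleted library 2, -0.39 in control library 1 and -0.46 in control library 2. In the other 4 libraries it was between 0.33 and 0.49. Socs5 stood at 4.78 to 9.72 CPM in the first 3 libraries and at 12.0 to 15.7 CPM in the other 4, and Socs6 at 17.1 to 22.3 and 35.6 to 56.8 CPM, so neither gene overlapped between these sets of libraries. Both sets hold both genotypes, and what sets the difference between long and short genes was not tested. The sets follow from a trend over many genes, and Socs6 is itself in the longest 25%. The share of all genes that separate in this way was not counted, so the separation cannot be called particular to Socs5 and Socs6. Socs4 and Socs7, whose implied lengths of 7061 and 7456 bases lie in the longest 25%, overlapped between the same sets, while Socs5, at 4515 bases, lies below that class.

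With this difference as a covariate in edgeR, an alternative chosen after the data were seen, the SE of the genotype difference fell from 0.45 to 0.22 for Socs5 and from 0.43 to 0.18 for Socs6. The log2 fold changes were then -0.10 and -0.12. For Socs3 the SE was 0.42 in both fits, and for Socs1 it was 0.88 without and 0.90 with the covariate. The log2 fold change of Socs1 was 1.95 in that fit (adjusted p = 0.323). No member passed, while 136 of all genes did.

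**Figure D4:**
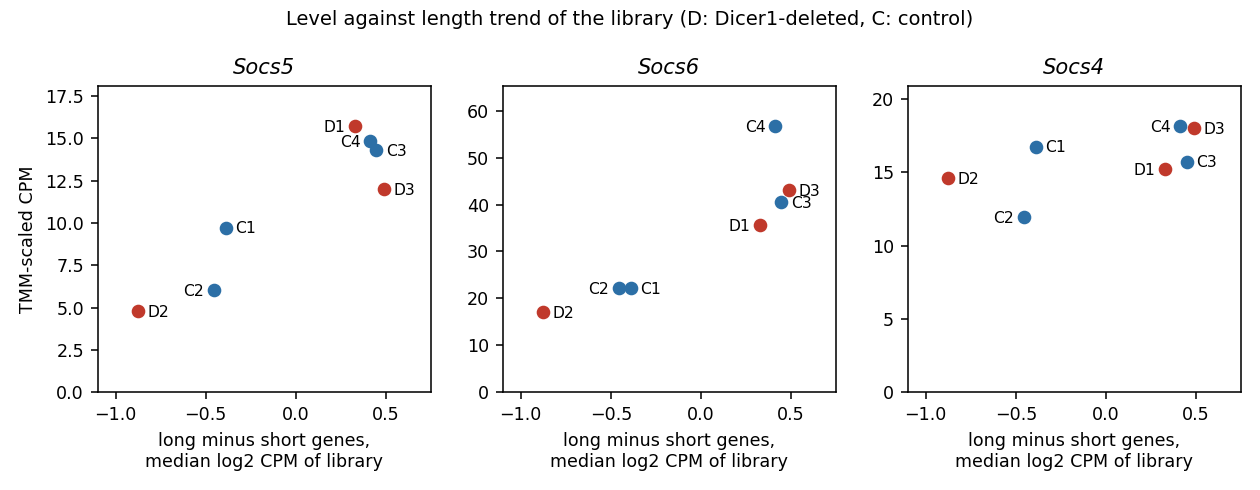
TMM-scaled CPM of Socs5, Socs6 and Socs4 (vertical axes) against the difference of median log2 CPM between long and short genes of each library (horizontal axes), with 1 dot per library and letters D for Dicer1-deleted and C for control. Socs5 and Socs6 are low in D2, C1 and C2 and higher in the other 4 libraries, whereas Socs4 ranges only from 12.0 to 18.2 CPM.

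For the 6 members with a mean of at least 5 CPM, the genes of nearest profile over the 7 libraries were found among 10316 genes, by the root mean square (RMS) difference of log2 CPM after each gene's mean was taken off. The nearest genes to Socs3 were Srxn1 (RMS 0.193), Gabarapl1 (0.233) and Vopp1 (0.261). Those nearest to Socs5 were Opa1 (0.092), Tbc1d15 (0.093) and Galnt7 (0.103), and those nearest to Socs6 were Mrtfb (0.103), Katnbl1 (0.117) and Clock (0.12). Opa1 ranged from 24.4 to 78.7 CPM and Mrtfb from 14.1 to 42.7 CPM. Socs4 was nearest to Zfr (0.076), Eif4g3 (0.081) and Nipbl (0.085), and Socs7 to Sec61a1 (0.087), Myo1g (0.091) and Nckap1l (0.095). Cish had no close neighbour, with Chst11 (0.265), Helz2 (0.328) and Malt1 (0.352) nearest. All genes share the depth and length trend of each library, so a small RMS describes these 7 libraries only.

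SOCS proteins act through a ubiquitin ligase. Of 10 tested partners in the SOCS box ligase, 0 passed in edgeR or DESeq2 (against 0.0247% and 2.5% of all genes). In edgeR 0 had an unadjusted p under 0.05 (against 8.01%). Their median log2 fold change was 0.18, beside 0.03 for all genes. Elob, which encodes elongin B, stood at 44.5, 104 and 35.8 CPM in the Dicer1-deleted and 57.3, 68.1, 32.7 and 36.5 CPM in the control libraries. Arih2, a ligase that works with cullin 5, was the 1 of 10 whose groups did not overlap, near the share of all genes, 9.31%. Its difference was 0.55 ± 0.26 (SE) on the log2 scale (edgeR, adjusted p = 0.670).

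Among 15 tested genes of other SOCS box proteins, 0 passed in edgeR, 1 rose in DESeq2 (against 0.924% of all genes) and 1 had an unadjusted p under 0.05 in edgeR (against 8.01%). The 1 gene was Asb2, whose ankyrin-repeat product directs filamins to the cullin 5 ligase. It stood at 2.53, 7.97 and 1.41 CPM in Dicer1-deleted libraries 1, 2 and 3 and at 0.0419, 0.224, 0.0729 and 0 CPM in control libraries 1 to 4. The lowest Dicer1-deleted level lay above the highest control level. The control levels rest on 2, 10, 4 and 0 reads and the Dicer1-deleted levels on 122, 314 and 66. Asb2 thus passed the count filter through the Dicer1-deleted group. No fold change is given, and its calls are not read as a rise of the list. The list's median, with Asb2 counted, was 0.10.

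Of 14 tested cytokines that induce SOCS genes, 0 passed in edgeR, 2 had an unadjusted p under 0.05 (against 8.01% of all genes) and 1 rose in DESeq2 (against 0.924%), and the median log2 fold change was -0.04. Il27, which encodes a subunit of interleukin 27, rose in DESeq2 (adjusted p = 0.00115; edgeR 0.156), a call that was lost without Dicer1-deleted library 2. It stood at 5.06, 9.04 and 2.60 CPM in the Dicer1-deleted and 0.796, 1.53, 0.729 and 1.37 CPM in the control libraries, without overlap. Ifng, the interferon that induces Socs1 and a product of T and NK cells, stood at 1.29, 0.152 and 0.427 CPM in the Dicer1-deleted and 0, 0.0449, 0 and 0.364 CPM in the control libraries. Its groups overlapped. These levels rest on 62, 6 and 20 reads in the Dicer1-deleted and 0, 2, 0 and 16 reads in the control libraries. The relation of Ifng to Socs1 was not tested. Il10, an anti-inflammatory cytokine that signals through STAT3, differed by 0.98 ± 0.41 (SE) on the log2 scale (edgeR, adjusted p = 0.569).

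Of 31 tested receptor chains and kinases that SOCS proteins act on, 0 passed in edgeR or DESeq2 (against 0.0247% and 2.5% of all genes). In edgeR 5 had an unadjusted p under 0.05, against 8.01% of all genes. Fold changes were positive in 26 and negative in 5, with a median of 0.38, while 52.6% of all genes were positive. On the log2 scale Jak2, the kinase bound by Socs1 and Socs3, differed by -0.01 ± 0.24 (SE) and Jak1 by 0.36 ± 0.23 (SE). Jak3 stood at 1.66, 2.39 and 6.23 CPM in the Dicer1-deleted and 0.419, 1.21, 0.729 and 1.41 CPM in the control libraries, without overlap (edgeR, adjusted p = 0.357). Ifngr2, a chain of the interferon gamma receptor, stood at 96.9, 103 and 107 CPM against 62.2, 67.0, 74.3 and 67.3 CPM, also without overlap (edgeR, adjusted p = 0.462). Of the STATs that these kinases phosphorylate, Stat3 stood at 87.1, 109 and 93.4 CPM in the Dicer1-deleted and 74.0, 79.5, 69.5 and 87.0 CPM in the control libraries (log2 fold change 0.31 ± 0.23, SE; edgeR, adjusted p = 0.921). Stat5b, an inducer of Cish, stood at 17.3, 20.6 and 18.8 CPM against 9.68, 11.3, 15.3 and 11.4 CPM (edgeR, adjusted p = 0.486). In both genes the groups did not overlap, for Stat3 by a narrow margin. Stat5a, the other STAT5 gene, stood at 6.85, 7.97 and 9.17 CPM against 5.82, 6.28, 10.97 and 8.47 CPM, with overlap (log2 fold change 0.02 ± 0.30, SE; edgeR, adjusted p = 0.999).

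Of 16 tested inhibitors of cytokine signaling outside the family, 0 passed in edgeR, 2 had an unadjusted p under 0.05 (against 8.01% of all genes) and 1 rose in DESeq2 (against 0.924%), with a median log2 fold change of -0.04. Dusp2, a nuclear phosphatase of MAP kinases, passed in DESeq2 (adjusted p = 9.57e-05; edgeR 0.121). It stood at 26.7, 58.6 and 11.7 CPM in the Dicer1-deleted and 3.65, 3.90, 5.79 and 6.97 CPM in the control libraries. All 3 Dicer1-deleted levels of Dusp2 lay above the control levels. Ptpn1, the phosphatase PTP1B that acts on JAKs, stood at 69.9, 132 and 61.9 CPM against 47.5, 49.9, 45.3 and 45.7 CPM, a difference of 0.90 ± 0.30 (SE) on the log2 scale (edgeR, adjusted p = 0.390).

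Of 16 tested STAT3 targets, the branch held down by Socs3, 0 passed in edgeR, 2 had an unadjusted p under 0.05 (against 8.01% of all genes) and 1 fell in DESeq2 (against 1.57%), with a median log2 fold change of 0.31. The gene that fell was Timp1, an inhibitor of matrix metalloproteinases, at 6.81, 12.4 and 6.66 CPM in the Dicer1-deleted and 24.3, 31.0, 22.4 and 20.6 CPM in the control libraries (log2 fold change -1.51 ± 0.31, SE; DESeq2, adjusted p = 0.00212; edgeR 0.156). DESeq2 no longer called it without Dicer1-deleted library 1. The kinase gene Pim1 and Bcl3, further STAT3 targets, differed by 0.71 ± 0.29 and 0.53 ± 0.26 (SE) on the log2 scale (edgeR, adjusted p = 0.547 and 0.693). Of 11 tested STAT5 targets, the branch that induces Cish, 0 passed in edgeR or DESeq2 (against 0.0247% and 2.5% of all genes). In edgeR 3 had an unadjusted p under 0.05 (against 8.01%), and the median was 0.28. Ccnd2, a cyclin of the list, stood at 76.1, 74.0 and 56.5 CPM against 20.1, 10.3, 50.8 and 15.8 CPM, without overlap (edgeR, adjusted p = 0.376). Socs2 and Cish, induced through STAT5 as well, overlapped between groups.

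Of 11 tested STAT6 targets, induced by interleukin 4, 0 passed in edgeR, 4 had an unadjusted p under 0.05 (against 8.01%) and 3 fell in DESeq2, against 1.57% of all genes: Retnla, Ccl17 and Ccl22. Of the 10 that remained tested in each case, DESeq2 called 1 without control library 1, 1 without control library 3 and 4 without control library 4. Ccl17 rests on 2, 0 and 2 reads in the Dicer1-deleted and on 88, 8, 264 and 16 reads in the control libraries. It thus passed the count filter through the control group. No fold change is given for it, and its call and direction are not read as a fall of the list. Fold changes were negative in 9 of 11, Ccl17 among them, with a median of -0.85. Retnla, a secreted marker of interleukin 4 activation, stood at 1.78, 2.69 and 2.13 CPM in the Dicer1-deleted and 17.3, 14.3, 42.2 and 3.78 CPM in the control libraries (log2 fold change -3.14 ± 0.71, SE; DESeq2, adjusted p = 2.41e-04; edgeR 0.181). Ccl22, a chemokine, stood at 2.82, 1.02 and 0.896 CPM against 15.8, 2.92, 30.1 and 3.42 CPM. Both genes were highest in control library 3, where the summed markers of conventional dendritic cells were highest too, at 209 CPM against 83.4, 71.3 and 23.9 CPM in control libraries 1, 2 and 4 and 28.5 to 35.7 CPM in the Dicer1-deleted libraries. Clec10a, Cd209a and Ccr7 are the most abundant markers of that list, and other markers in it went the other way: DESeq2 called Xcr1 (adjusted p = 7.56e-04) and Batf3 (adjusted p = 0.0192) higher and Ccr7 (adjusted p = 0.00999) lower in the Dicer1-deleted libraries. No dendritic cell marker was at 0 in every library, and the part of these cells in the difference was not tested.

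**Figure D5:**
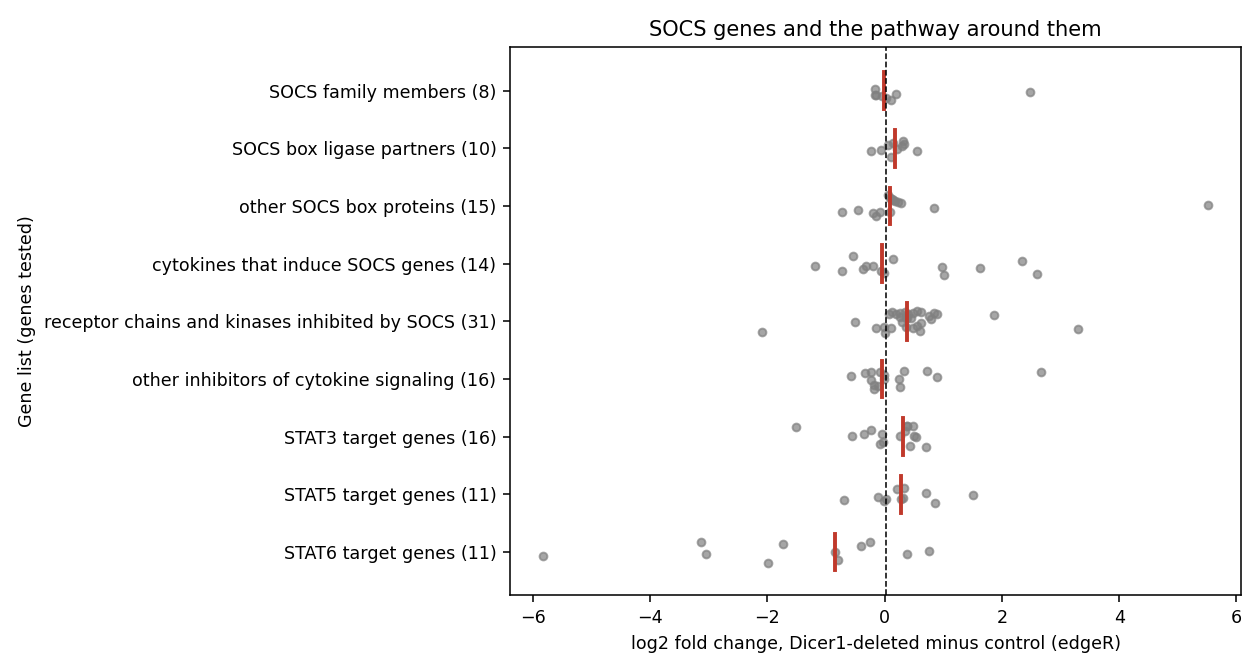
Log2 fold change, Dicer1-deleted minus control, of each tested gene (grey dots) in the SOCS family and in 8 lists of its pathway, with red bars at list medians and a dashed line at the median of all genes, 0.03. The SOCS family is centred at -0.01 with Socs1 apart at 2.48, and 9 of 11 STAT6 targets lie below 0.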

How the data were processed

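RNA of 7 sorted macrophage samples was amplified from 2 ng with the SMARTer ultra low kit and made into Nextera XT libraries, read as pairs of 50 bases, per the labels' protocols. For each gene of a library the authors deposited the count of reads placed uniquely, an expected count that adds shares of multiply placed reads, and RPKM values, per the file headers. Bowtie2 is named in the submitters' processing notes, and the sources used here give no version, genome build, annotation or counter. The 31124 unlisted values were set to 0. Symbols came from GENCODE mouse release 21 (21813 of 24084 gene identifiers matched).

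Unique counts were tested in edgeR 4.0.16 (R 4.3.3) by the quasi-likelihood F test after filterByExpr and TMM scaling, with p-values adjusted by Benjamini-Hochberg over 16226 genes and a threshold of 0.05. DESeq2 1.42.0 and limma-voom (limma 3.58.1) were alternatives, also on unique counts. Rounded expected counts entered a separate edgeR alternative. The biological coefficient of variation was 45.1%. RPKM served for levels between genes and for gene lengths. The workflow was tested on simulated data. PCR reads without molecular identifiers are not independent molecules.

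The members and lists were chosen with earlier results of these data known. Named are the members, Dicer1, set regulators of the pathway, and from each list the genes called by edgeR or DESeq2 and up to 3 of the smallest edgeR p, though not every such gene is printed. Nearest profiles used log2 CPM with a prior count of 1. Cd3e, Cd3g, Cd4, Pecam1, Xcr1 and Batf3 were named, and marker sums without their most abundant gene added, after the values were seen. Results of some items of the pathway are not reported here.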

Additional observations from a re-analysis of the deposited data

Results flagged for a closer look

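Ifng, the interferon that induces Socs1, had 1 control library far from the others: 0.364 CPM in control library 4 against 0, 0.0449 and 0 CPM in control libraries 1 to 3. Its gap to the next library, as a share of the whole range, is above the Dixon limit for 4 samples. Chance alone puts about 1 in 20 such groups past this limit, and 48 genes were examined. Socs1 stood at 0.319 CPM in the same library, the highest of its 4 control levels. There Ifng rests on 16 reads and Socs1 on 14, and a relation between them was not tested.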

How the results depend on the processing

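Fold changes below are on the log2 scale, Dicer1-deleted minus control, and the members' calls are given with them. No member passed under any alternative set beforehand. Among those added after the data were seen, DESeq2 without Dicer1-deleted replicate 3 called 1 member, Socs1, at 3.05. Socs1 stayed positive wherever it was tested, at 1.17 with limma-voom and sample quality weights and at 1.23 to 2.99 with 1 library left out in edgeR. It was removed by the filter of 1 CPM in 3 libraries and by the filter on read pairs, so it has no value there. Socs2 stayed positive, at 0.02 to 0.68 with 1 library left out. The direction of the other 6 members was not stable, and the cause was not tested. Without TMM factors Socs3 was at -0.00045 and Socs4 at -0.021. With limma-voom and quality weights Socs3 was at -0.212, Socs5 at 0.322 and Socs6 at 0.245, and with limma-voom alone Cish was at 0.016. With the L code as covariate Socs5 was at 0.369, Socs6 at 0.120, Socs7 at 0.001 and Cish at 0.372.

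With 1 library left out in edgeR, Socs3 ranged from -0.359 to 0.428, Socs4 from -0.070 to 0.107, Socs5 from -0.420 to 0.297, Socs6 from -0.427 to 0.173, Socs7 from -0.332 to -0.019 and Cish from -0.512 to 0.327. In single left-out fits of edgeR the values that turned were -0.359 and -0.017 for Socs3, -0.070 and -0.063 for Socs4, 0.297, 0.089 and 0.111 for Socs5, 0.150 and 0.173 for Socs6, and 0.018 and 0.327 for Cish. In DESeq2 the same libraries gave -0.348 and -0.008 for Socs3, -0.039 and -0.058 for Socs4, 0.304, 0.089 and 0.127 for Socs5, 0.151 and 0.191 for Socs6, and 0.067 and 0.351 for Cish.

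Over all genes edgeR called 4, and 0 to 3 with 1 library left out. The count was 405 in DESeq2, 2 in limma-voom, 80 with quality weights, 42 without a count filter, 0 with the L code and 136 with the length covariate. In DESeq2 without Dicer1-deleted libraries 1, 2 and 3 it was 319, 337 and 396, and without control libraries 1 to 4 it was 237, 333, 299 and 370. The reported pathway lists had 0 edgeR calls in total in the reported fit. DESeq2 called 1 other SOCS box protein, 1 cytokine, 1 other inhibitor, 1 STAT3 and 3 STAT6 targets. Among these calls, Asb2 and Ccl17 each passed the count filter through 1 group. With 1 library left out it called 1 SOCS box protein, 0 to 1 cytokine, 0 to 2 receptors or kinases, 1 other inhibitor, 0 to 1 STAT3, 0 to 1 STAT5 and 1 to 4 STAT6 targets. The length covariate gave 1 SOCS box protein and 1 STAT3 target, no count filter gave 1 SOCS box protein and 1 other inhibitor, and quality weights gave 1 STAT3 target. No paired analysis was possible because the labels give the libraries no replicate number that the groups share; the L code, which both groups hold, was fitted as a covariate, with the values above. Socs1 has 4 to 100 reads in a library, and depth limits its level.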
